A study of Sus scrofa with 15 samples.

Results

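Janus kinases (JAK) and signal transducers and activators of transcription (STAT) carry the signal of most interleukins and of all interferons from the cell surface to the nucleus. The 4 JAK family kinases *JAK1*, *JAK2*, *JAK3* and *TYK2*, and the 5 STAT genes *STAT3*, *STAT4*, *STAT5A*, *STAT5B* and *STAT6*, which act downstream of the cytokines that NK cells respond to, were selected by gene symbol from a table of read counts of porcine NK cells. These are 9 of the 29886 genes in the table, and all 9 were among the 10939 genes that passed the filter on low counts.

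The kinases sit on the inner tails of cytokine receptor chains and phosphorylate each other, the receptor and the STAT proteins that dock there. Phosphorylated STAT proteins pair up, enter the nucleus and switch on their target genes, among them the SOCS genes that damp the pathway. In NK cells, interleukin-2 and interleukin-15 act through JAK1, JAK3 and STAT5 and sustain survival and proliferation, while interleukin-12 acts through JAK2, TYK2 and STAT4 and drives interferon-gamma production.

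The study asked how NK cells that reside in the pig liver differ in their transcriptome from circulating NK cells. CD8α high NK cells of the blood (cNK cells), CD8α high NK cells of the liver and CD8α dim NK cells of the liver (lrNK cells) were sorted by flow cytometry, as CD3-CD172a- lymphocytes, from the same 5 pigs of 6 months of age. Liver lymphocytes came from fluid flushed through the organ, and RNA was sequenced near the 3′ ends of polyadenylated transcripts. The 15 libraries held 2874092 to 3823973 counts in blood, 2886686 to 5680221 in liver CD8α high cells and 2003499 to 3776823 in lrNK cells. Levels are given as CPM, the counts scaled to a common library size with the TMM factors of edgeR. They are compared between genes on that scale, in which 3′ counts do not grow with transcript length. Populations were compared by their log2 fold change (log2FC), given with its standard error (SE). A gene was called when its p in the quasi-likelihood test of edgeR, adjusted over the 10939 genes by the Benjamini-Hochberg method (BH), was under 0.05. All intervals are 95% confidence intervals, and every group had n = 5.

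The 9 genes spanned a wide range of levels. In CPM, *JAK1* was the highest of the 9 genes in all 15 libraries and *STAT5B* was next in all 15. *TYK2* took place 3 in 12 libraries, while *JAK2*, *STAT4* and *STAT6* each took that place in 1 library. *JAK3* took place 7 or 8 and *STAT3* place 9 in every library. The range of *STAT5B* in CPM did not overlap with that of *TYK2* in any population, whereas the range of *TYK2* overlapped with that of *STAT4* in each. *JAK2*, *STAT4*, *STAT5A* and *STAT6* exchanged places from library to library, and their ranges overlapped within each population except for *STAT4* and *STAT6* in liver CD8α high NK cells. The 9 genes together made up 0.156 to 0.280% of the counts of the CD8α high libraries of blood and liver and 0.266 to 0.578% of those of the lrNK libraries.

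**Figure D1:**
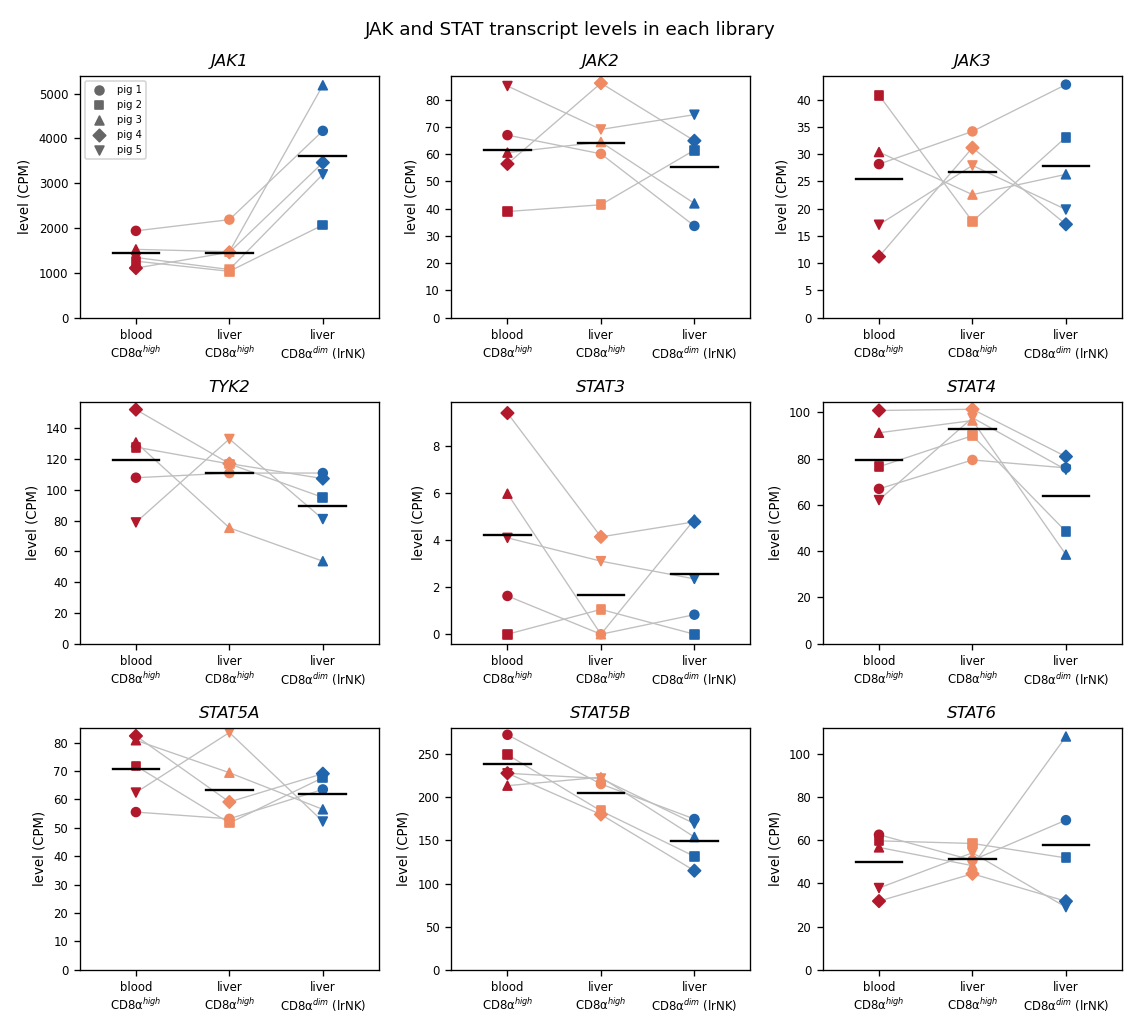
Levels in CPM (vertical axes, which differ between panels) of the 9 JAK and STAT genes in lrNK cells and in the CD8α high NK cells of blood and liver. Each symbol is 1 library, grey lines join the libraries of 1 pig, and black bars are means of 5 pigs. The lrNK libraries of *JAK1* lie between 2068 and 5186 CPM, above all blood libraries, and those of *STAT5B* between 115 and 175 CPM, below all libraries of the other populations.

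Of the 9 genes, lrNK cells had 1 called above its blood level and 1 called below it. Of all 10939 genes tested, 18.2% were called in that comparison, 8.62% higher and 9.6% lower, so the share among the JAK and STAT genes was near that of all genes. The median log2FC was -0.19 over the 9 genes and 0.01 over all genes. In the comparison with liver CD8α high NK cells, lrNK cells again had 1 of the 9 genes higher and 1 lower, where 14.6% of all genes were called, 6.96% higher and 7.68% lower. The median log2FC was then -0.04 over the 9 genes and 0.02 over all genes. These comparisons share the lrNK libraries and are not independent.

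Between liver and blood CD8α high NK cells, 0 of the 9 genes were called by edgeR, 0 had an unadjusted p under 0.05, and DESeq2 called 0. Of all genes, 0.064% were called, 0.0457% higher and 0.0183% lower in the liver, which are 7 genes, while DESeq2 called 22. The narrowest interval of a log2FC among the 9 genes in this comparison was that of *STAT5B*, from -0.53 to 0.09, and the widest that of *STAT3*, from -3.64 to 1.09.

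*JAK1*, the kinase shared by the receptors of the common gamma chain cytokines, the interleukin-6 family, interleukin-10 and the interferons, lies on chromosome 6 from 147320288 to 147567188 of the assembly Sscrofa11.1. In blood CD8α high NK cells, *JAK1* stood at 1938, 1261, 1524, 1106.5 and 1343 CPM in pigs 1 to 5. The liver CD8α high values, in the same order, were 2188, 1034, 1472, 1459 and 1074 CPM. In lrNK cells the values were 4169.8, 2068, 5186, 3461 and 3200.0 CPM. Pig 1 was highest in both CD8α high populations, pig 3 was highest and pig 2 lowest in lrNK cells, and no lrNK library overlapped with a blood library. The lrNK library of pig 2 lay below the liver CD8α high library of pig 1, but each pig had more *JAK1* in its lrNK cells.

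Within pigs, the lrNK level was 2.15, 1.64, 3.40, 3.13 and 2.38 times the blood level in pigs 1 to 5, computed from log2 CPM with a prior count of 2. The fitted difference between lrNK cells and blood was 2.52-fold (interval 1.80 to 3.53, log2FC 1.33 ± 0.23 SE, edgeR, BH-adjusted p = 2.65e-04). Relative to the liver CD8α high population, *JAK1* was 2.50-fold higher in lrNK cells (interval 1.79 to 3.50, log2FC 1.32, edgeR, BH-adjusted p = 3.47e-04). Between liver and blood CD8α high NK cells the log2FC was 0.01, with an interval from -0.47 to 0.49 (edgeR, BH-adjusted p = 1.00), and *JAK1* was higher in the liver in 2 of 5 pigs. In sorted bulk samples, fewer cells of a type and less RNA per cell cannot be told apart.

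B cell markers moved with the same populations. The 7 genes of the B cell list summed to 486, 696, 261, 767 and 284 CPM in the lrNK libraries of pigs 1 to 5, against 51.9 to 135 CPM in blood and 17.9 to 60.1 CPM in liver CD8α high NK cells. *MS4A1* was the most abundant gene of the list in lrNK cells, at a mean of 267 CPM, and had 29.6 CPM in blood. *CD79A*, a defining marker of B cells, had 0 counts in all 15 libraries. Of the 6 genes of the list that were tested, 5 were called higher in lrNK cells than in blood and 0 lower (edgeR, BH), beside 8.62% and 9.6% of all genes. The lrNK library with the highest *JAK1* level, that of pig 3, had the lowest B cell sum among the lrNK libraries. The part of these transcripts in the *JAK1* difference was not tested.

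The other 3 kinases were not called in any comparison. *JAK2*, on chromosome 1 from 216849744 to 217002310, serves the interleukin-12 receptor and the receptors of the granulocyte-macrophage colony-stimulating factor family. *JAK2* ranged from 38.9 to 85.0 CPM in blood, from 41.4 to 86.0 CPM in liver CD8α high cells and from 33.6 to 74.4 CPM in lrNK cells. The log2FC of *JAK2* between lrNK cells and blood was -0.15 (interval -0.67 to 0.37), and it was lower in lrNK cells in 3 of 5 pigs. *JAK3*, on chromosome 2 from 59905901 to 59926504, binds the common gamma chain of the receptors for interleukin-2 and interleukin-15. Its levels were 11.2 to 40.8 CPM in blood, 17.7 to 34.2 CPM in liver CD8α high cells and 17.1 to 42.8 CPM in lrNK cells. The interval of the *JAK3* log2FC between lrNK cells and blood ran from -0.59 to 0.81, so that a change of the size of that of *JAK1* lay outside it.

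*TYK2*, on chromosome 2 from 69157774 to 69183555, partners JAK1 at the type I interferon receptor and JAK2 at the interleukin-12 receptor. Its levels in pigs 1 to 5 were 108, 128, 131, 152 and 78.8 CPM in blood and 111, 117, 75.3, 117 and 133 CPM in the CD8α high cells of the liver. In lrNK cells they were 111, 95.0, 53.6, 107 and 81.0 CPM. Pig 3 had the lowest value in both liver populations, and the populations overlapped. The *TYK2* log2FC between lrNK cells and blood was -0.41 (interval -0.86 to 0.04, edgeR, BH-adjusted p = 0.212), with a lower level in 3 of 5 pigs. Without the lrNK library of pig 3 it was -0.26.

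The share of *JAK1* among the kinases was highest in lrNK cells, although the difference in share was not tested. *JAK1* made up 83.4 to 90.5% of the counts of the 4 kinases in blood, 82.4 to 91.4% in liver CD8α high cells and 91.6 to 97.7% in lrNK cells. The lowest lrNK share, in pig 2, was just above the highest liver CD8α high share, in pig 1. *JAK2*, *JAK3* and *TYK2* together summed to 181 to 222 CPM in blood, 162 to 234 CPM in liver CD8α high cells and 122 to 189.6 CPM in lrNK cells, and these ranges overlapped. The median count ratio of *JAK1* to *JAK2* was 25.2 in blood, 22.9 in liver CD8α high cells and 53.4 in lrNK cells. For *JAK1* to *TYK2* the medians were 11.7, 12.5 and 37.6. These ratios within a library do not depend on its scaling.

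Among the STAT genes, *STAT5B* was the only gene called in any of the 3 comparisons. *STAT5B*, which together with *STAT5A* relays interleukin-2 and interleukin-15 signals, lies on chromosome 12 from 20498103 to 20574365. Its blood levels were 273, 249, 214, 228 and 228 CPM in pigs 1 to 5. Liver CD8α high NK cells had 215, 184, 223, 180.1 and 222 CPM, and lrNK cells 175, 132, 154, 115 and 169.5 CPM. Every lrNK library was below every library of the other populations, and pig 4 had the lowest value in both liver populations.

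In each pig the lrNK level of *STAT5B* was 0.642, 0.528, 0.722, 0.505 and 0.744 times its blood level. The fitted level in lrNK cells was 0.625 times that in blood (interval 0.504 to 0.775, log2FC -0.68 ± 0.15 SE, edgeR, BH-adjusted p = 0.00246). Relative to liver CD8α high cells the factor was 0.727 (interval 0.586 to 0.901, log2FC -0.46, edgeR, BH-adjusted p = 0.0412), again lower in 5 of 5 pigs. This call against liver CD8α high NK cells was lost when any 1 of the 5 pigs was left out, with adjusted p from 0.0601 to 0.123, and with library totals in place of TMM, with adjusted p = 0.0604 (edgeR, BH). The *STAT5B* log2FC of liver over blood CD8α high cells was -0.22, and the level was lower in the liver in 4 of 5 pigs.

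*STAT5A*, the close paralog of *STAT5B*, lies next to it on chromosome 12 from 20474221 to 20498785. Its levels were 55.6 to 82.4 CPM in blood, 51.7 to 83.6 CPM in liver CD8α high cells and 52.2 to 69.1 CPM in lrNK cells. The *STAT5A* log2FC between lrNK cells and blood was -0.19 (interval -0.58 to 0.20, edgeR, BH-adjusted p = 0.554), with a lower level in 4 of 5 pigs. Whether *STAT5A* and *STAT5B* differed in their response was not tested. The count ratio of *STAT5B* to *STAT5A* had a median of 3.47 in blood, 3.22 in liver CD8α high cells and 2.72 in lrNK cells, and its ranges overlapped. The ratio of *JAK1* to *STAT5B* counts was 4.85 to 7.14 in blood, 4.84 to 10.2 in liver CD8α high cells and 15.7 to 33.7 in lrNK cells, without overlap between lrNK cells and the others.

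*STAT4*, the factor that interleukin-12 activates in NK cells, lies on chromosome 15 from 95656206 to 95764099. In pigs 1 to 5, *STAT4* stood at 66.9, 76.5, 91.2, 101 and 62.1 CPM in blood and at 79.4, 89.9, 96.5, 101 and 97.7 CPM in liver CD8α high cells. The lrNK levels were 76.0, 48.5, 38.5, 80.9 and 75.2 CPM. The level in liver CD8α high NK cells was above that in blood in 5 of 5 pigs, by very little in pig 4, and above that in lrNK cells in 5 of 5 pigs. The *STAT4* log2FC between lrNK and liver CD8α high NK cells was -0.54 (interval -0.97 to -0.10, edgeR, BH-adjusted p = 0.0999) and so was not called. Between liver and blood CD8α high NK cells it was 0.23 (interval -0.21 to 0.66) and not called either. Without the lrNK library of pig 3, which had the lowest level, the log2FC between lrNK and liver CD8α high NK cells was -0.40.

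*STAT6*, the factor of interleukin-4 signalling, lies on chromosome 5 from 22406356 to 22422412. Its lrNK levels were spread more widely than those of either CD8α high population, at 69.4, 51.8, 108, 31.7 and 29.0 CPM in pigs 1 to 5, against 31.8 to 62.6 CPM in blood and 44.5 to 58.5 CPM in liver CD8α high NK cells. The *STAT6* log2FC between lrNK cells and blood was 0.21 (interval -0.42 to 0.83) and changed sign, to -0.13, without the lrNK library of pig 3. That library was the highest lrNK library for *JAK1* and *STAT6* and the lowest for *TYK2* and *STAT4*.

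*STAT3*, which relays interleukin-10, interleukin-21 and interleukin-6 family signals, lies on chromosome 12 from 20407316 to 20471091. Only 145 counts of *STAT3* were found in the 15 libraries, 0 to 26 in each. It had 0 counts in 4 libraries, which allows a level of up to 0.822 to 1.44 CPM there (3 counts, counting error only). The libraries of pig 4 had 26, 24 and 17 counts in blood, liver CD8α high and lrNK cells, and those of pig 2 had 0, 4 and 0. In CPM, pig 4 was highest in both CD8α high populations, and pig 3 in lrNK cells, at 4.87 CPM against 4.77 CPM in pig 4. The intervals of its log2FCs were wide, from -3.05 to 1.67 between lrNK cells and blood, and no difference in *STAT3* was called. Whether the few counts of *STAT3* reflect the level of its transcript was not tested.

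**Figure D2:**
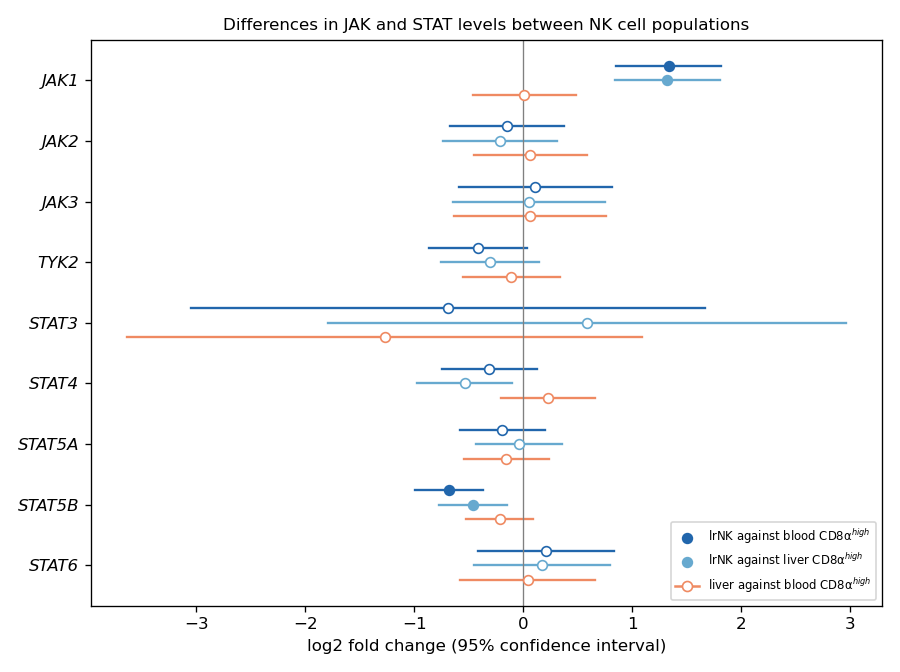
Log2 fold changes (horizontal axis) of the 9 JAK and STAT genes in the 3 comparisons of populations, with points for the edgeR estimate and bars for its 95% confidence interval. Filled points passed an adjusted p of 0.05. They are those of *JAK1*, at 1.33 and 1.32, and of *STAT5B*, at -0.68 and -0.46, in lrNK cells against blood and against liver CD8α high NK cells.

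The receptor chains that hold these kinases were read from a list of 35 genes, of which 34 matched the table and 20 passed the filter. In lrNK cells against blood, 5 of the 20 were called higher and 1 lower, where 8.62% of all genes tested were higher and 9.6% lower. The median log2FC of the list was 0.39, against 0.01 over all genes. Among these called genes the largest rises were those of *CSF2RB*, *IFNAR2* and *IL6ST*. Larger log2FCs than that of *IFNAR2* were not called by edgeR for *IL21R*, at 2.40, and *IL15RA*, at 1.79, of which DESeq2 called *IL21R* (adjusted p = 0.0290). *IFNAR2*, the chain of the type I interferon receptor that binds JAK1, rose from 50.7 to 75.1 CPM per blood library to 167 to 233 CPM per lrNK library (log2FC 1.64 ± 0.24 SE, edgeR, BH-adjusted p = 3.11e-05). *IFNAR1*, the chain that binds TYK2, and *IFNGR1*, the chain of the interferon-gamma receptor that binds JAK1, make up the 5 and are named here after their values were seen. Their log2FCs were 1.05 and 1.03 (edgeR, BH-adjusted p = 0.00659 and 0.00365).

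*IL6ST*, the signalling chain of the interleukin-6 family that binds JAK1, JAK2 and TYK2, rose by a log2FC of 1.58 (SE 0.45, edgeR, BH-adjusted p = 0.0169), from a mean of 18.9 to 56.9 CPM. This call was lost when pig 2, 3 or 5 was left out, with adjusted p from 0.0636 to 0.0840 (edgeR, BH). *CSF2RB*, the JAK2-binding chain of the receptors for granulocyte-macrophage colony-stimulating factor and interleukin-3, had 0 to 5 counts per blood library and 17 to 39 per lrNK library (log2FC 3.91 ± 1.08 SE, edgeR, BH-adjusted p = 0.0134). Without pig 1 or without pig 2 its adjusted p was 0.0609 or 0.0616 (edgeR, BH). *IL10RA*, the JAK1-binding chain of the interleukin-10 receptor, was the receptor gene called lower, from 143 to 204 CPM in blood to 36.5 to 65.3 CPM in lrNK cells (log2FC -1.88 ± 0.19 SE, edgeR, BH-adjusted p = 2.27e-07). With the pig as a block *IL4R* was called lower as well, at -0.53 (edgeR, BH-adjusted p = 0.0492), and DESeq2 called it too (adjusted p = 0.0479).

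Receptor chains for interleukin-2 and interleukin-15, named here after their values were seen, were not called between lrNK cells and blood. *IL2RB*, which binds JAK1, had means of 3029 and 2004 CPM (log2FC 0.60, edgeR, BH-adjusted p = 0.330), and was higher in lrNK cells in 4 of 5 pigs. Its lrNK levels were spread widely, from 381 to 5900 CPM, on both sides of the blood range of 1354 to 2596 CPM. *IL2RG*, which binds JAK3, had means of 181 and 146 CPM (log2FC 0.31, edgeR, BH-adjusted p = 0.215), higher in 5 of 5 pigs. Against liver CD8α high NK cells, 3 receptor genes were called higher and 3 lower in lrNK cells (6.96% and 7.68% of all genes), and between liver and blood CD8α high NK cells edgeR called 0 of 20.

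Of 22 ligand genes listed, 5 passed the filter, and lrNK cells had 1 called higher and 0 lower against blood, beside 8.62% and 9.6% of all genes. *IL7*, whose receptor signals through JAK1 and JAK3, was the ligand called by edgeR, with 0 to 5 counts per blood library and 12 to 79 per lrNK library (log2FC 4.01 ± 1.14 SE, edgeR, BH-adjusted p = 0.0169). The highest *IL7* level, 38.5 CPM, was that of lrNK pig 3. Without that library the log2FC was 3.21 (adjusted p = 0.0627), without pig 3 it was 3.44 (adjusted p = 0.0748) and without pig 1 it was 4.12 (adjusted p = 0.0599), all by edgeR with Benjamini-Hochberg adjustment. *OSM*, with 0 to 26 counts per library, did not pass the filter, but DESeq2 called it lower in lrNK cells against blood, at -4.49 (adjusted p = 0.0155), and against liver CD8α high cells, at -4.69 (adjusted p = 0.0118).

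Of 26 listed regulators of the kinases and STAT proteins, 24 passed the filter. Against blood, lrNK cells had 3 of them called higher and 5 called lower, beside 8.62% and 9.6% of all genes, and the median log2FC was 0.03. *USP18*, which displaces JAK1 from IFNAR2, rose from 0 to 25 counts per blood library to 48 to 143 per lrNK library (log2FC 3.71 ± 0.82 SE, edgeR, BH-adjusted p = 0.00260). *CBLB*, a ubiquitin ligase that restrains NK cell activation, rose from a mean of 210.5 to 666 CPM (log2FC 1.66, edgeR, BH-adjusted p = 9.94e-07). *PTPN6*, the phosphatase SHP-1, rose by a log2FC of 0.91 (edgeR, BH-adjusted p = 0.00278).

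Among the regulators that fell, *PTPN1*, a phosphatase that acts on JAK2 and TYK2, went from 478 to 664 CPM in blood to 215 to 256 CPM in lrNK cells (log2FC -1.24 ± 0.14 SE, edgeR, BH-adjusted p = 8.74e-07). *SOCS7*, a member of the SOCS family of inhibitors, had a log2FC of -1.58 (edgeR, BH-adjusted p = 9.50e-06). *SOCS2*, a STAT5 target that acts as a feedback inhibitor, had 33 to 118 counts per blood library and 1 to 52 per lrNK library, with a log2FC of -1.71 (edgeR, BH-adjusted p = 0.0199). The *SOCS2* call was lost without pig 2, without pig 4 and in the fit of 2 populations, with adjusted p of 0.0605, 0.142 and 0.0602 (edgeR, BH). *PTPN2* and *PIAS4* make up the 5, and with the pig as a block *SOCS1* joined them, at -0.81 (edgeR, BH-adjusted p = 0.0262). Against liver CD8α high NK cells, 3 regulators were called higher and 5 lower in lrNK cells (6.96% and 7.68% of all genes), and between the CD8α high populations edgeR called 0 of 24.

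Of 23 genes listed as targets of STAT proteins, 21 passed the filter, of which lrNK cells had 4 called higher and 5 called lower against blood. The shares over all genes were 8.62% and 9.6%, and the median log2FC of the targets was 0.13. *IL18R1*, a chain of the interleukin-18 receptor, rose from 14.9 to 52.3 CPM in blood to 159 to 475 CPM in lrNK cells (log2FC 3.36 ± 0.58 SE, edgeR, BH-adjusted p = 2.28e-04). The survival factor *MCL1* rose by 1.07 and the kinase gene *PIM2* by 1.35 on the log2 scale (edgeR, BH-adjusted p = 5.01e-05 and 0.00740). The *PIM2* call was lost without pig 1, with adjusted p = 0.0530 (edgeR, BH).

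*GZMB*, which encodes the cytotoxic protease granzyme B, and *TBX21*, which encodes T-bet, fell in lrNK cells with log2FCs of -2.63 and -2.55 (edgeR, BH-adjusted p = 5.59e-04 and 4.06e-08). *PIM1*, a kinase gene that STAT5 induces, had 78.0 to 567 CPM in blood, a range that overlapped with the 7.79 to 142 CPM of the lrNK libraries (log2FC -1.44, edgeR, BH-adjusted p = 0.0397). With the pig as a block the *PIM1* adjusted p was 0.0550 (edgeR, BH) and with DESeq2 it was 0.0739. Its call was also lost with robust dispersion, in the fit of 2 populations and without pig 2, 4 or 5, with adjusted p from 0.0673 to 0.262 (edgeR, BH), and at the threshold of 0.01, so that it held under 7 of 15 alternatives. Against liver CD8α high NK cells, 3 targets were called higher and 4 lower in lrNK cells (6.96% and 7.68% of all genes), 6 lower with the pig as a block, and between the CD8α high populations edgeR called 0 of 21. In the comparison of these CD8α high populations, the receptor, ligand, regulator and target lists had medians between 0.00 and 0.20.

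Genes with the most similar profile were found by the root mean square difference of centred log2 CPM over the 15 libraries. For *JAK1* these were *RAVER2*, at 0.0976, and *ZBTB43*, at 0.226, where the median over all tested genes was 0.953. For *STAT5B* they were *CHST7*, at 0.138, and *VEZF1*, at 0.151, with a median of 0.675. Since these genes were chosen for their values in the same libraries, their log2FCs between lrNK cells and blood follow from the choice and are given without a test, as 1.52 for *ZBTB43*, -0.74 for *CHST7* and -0.71 for *VEZF1*.

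*RAVER2*, the gene most like *JAK1*, overlaps it by 259 bases. Its counts were 33.2 to 41.9% of those of *JAK1* in every library, and its log2FC between lrNK cells and blood was 1.32. The strand setting of the counting is not given in the sources used here, so reads of *JAK1* and *RAVER2* in this stretch cannot be told apart. *STAT5A* and *STAT5B* share 683 bases, and with *STAT3*, which ends 3129 bases before *STAT5A*, they lie within 167050 bases of chromosome 12. *STAT6* shares 69 bases with *NAB2*, and *JAK2* shares 2845 bases with a pseudogene. A microRNA gene of 81 bases within *JAK1* had 1 count in all libraries together. The levels of *JAK1*, *JAK2*, *STAT5A*, *STAT5B* and *STAT6* are uncertain to that extent.

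Marker lists of the sorted cells and of other cells were read in the same libraries. The NK list of 8 genes summed to 3466 to 4534 CPM in blood, 3963 to 4776 CPM in liver CD8α high cells and 2899 to 4266 CPM in lrNK cells. By mean level *TBX21* was its most abundant gene in blood and liver CD8α high cells, at 1143 and 1188 CPM, and *NKG7* in lrNK cells, at 1128 CPM. T cell markers summed to 637 to 1203 CPM in blood, 714 to 1076 CPM in liver CD8α high cells and 110 to 593 CPM in lrNK cells, nearly all from *CD3G*, with a mean of 289 CPM in lrNK cells against 865 CPM in blood. The cells had been sorted as CD3-. Of the other defining T cell markers, *CD3D* had at most 60 counts in a library, with higher means in the liver, of 8.43 CPM in lrNK and 7.38 CPM in CD8α high cells, than in blood, of 3.78 CPM, and was not called. *CD3E* had at most 102 counts, with means of 10.2 CPM in blood, 9.03 CPM in liver CD8α high and 2.12 CPM in lrNK cells. Of 3 T cell markers tested, lrNK cells had 1 called lower against blood and 1 against liver CD8α high cells, beside 9.6% and 7.68% of all genes. With the pig as a block these numbers were 1 and 2 (edgeR, BH). The highest sums of myeloid, hepatocyte and endothelial markers, of 25.6, 9.74 and 14.1 CPM, were all those of lrNK libraries. The endothelial sum was that of pig 3 alone, and endothelial medians ran the other way, at 3.75 CPM in blood, 0.558 CPM in liver CD8α high and 0 in lrNK cells. Hepatocyte markers, with *ALB* the most abundant in lrNK cells, had 0 counts in every blood library and a median of 5.81 CPM in lrNK cells. Myeloid markers had medians of 2.19, 0.791 and 6.79 CPM in blood, liver CD8α high and lrNK cells. *LYZ*, the myeloid marker tested, was called higher in lrNK than in liver CD8α high cells (log2FC 4.57, edgeR, BH-adjusted p = 0.0272) but not in the fit that blocks on pig (edgeR, BH-adjusted p = 0.0512), and was not called against blood. The sort had also removed CD172a+ cells. The part of myeloid, hepatocyte and endothelial transcripts in the *CSF2RB* difference and in the others was not tested. *CD163*, *CSF1R*, *TTR*, *STAB2* and *CDH5* had 0 counts in all 15 libraries. Erythroid and platelet markers reached 306 CPM in 1 blood library, nearly all from *HBB*, with 837 counts there. The lower T cell sum of lrNK cells thus rests mainly on *CD3G*, while the mean of *CD3E* was lower as well and that of *CD3D* was not. The part of T cell transcripts in the *STAT5B* difference was not tested.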

How the data were processed

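Counts of the authors were used as deposited: whole numbers of reads per gene and library, without normalization. The authors trimmed the reads and aligned them to Sscrofa11.1 with HISAT2, while the counting tool and its strand setting are not given in the sources used here. The labels gave a population and a pig for each of the 15 columns, and 0 columns stayed unmatched. Tests used edgeR 4.0.16 in R 4.3.3 (TMM, filterByExpr by population, quasi-likelihood test, Benjamini-Hochberg) in a single fit of all libraries, with population as the only term. A standard error is the log2 fold change divided by the square root of its F statistic. Alternatives were DESeq2 1.42.0, its size factors in edgeR, library totals, other filters, robust dispersion, the pig as a block, fits restricted to 2 populations, an adjusted p under 0.01, and each pig, or the lrNK library of pig 3, left out.

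The pairing comes from the labels and from the study, in which all populations were taken from the same animals. Deviations from the population means had a mean correlation of 0.107 between libraries of the same pig and -0.0265 between those of other pigs. The 9 genes and the pathway and marker lists were chosen with earlier results of these data known. Named by rule from each pathway list were up to 3 of the largest rises and up to 3 of the largest falls called in lrNK cells against blood, and any gene called between the CD8α high populations. Other pathway genes, among them *IL21R*, *IL15RA*, *IL4R*, *OSM*, *PTPN2*, *PIAS4*, *SOCS1* and *ID2*, were named after their values were seen. They are outside the 17 genes whose calls were followed under the alternatives. For each called JAK or STAT gene the 2 most alike genes were named, and from each marker list the most abundant gene and the defining markers. Gene coordinates come from a table of Sscrofa11.1, which matched 29862 of the 29886 genes. The fitting code was tested on simulated data.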

Additional observations from a re-analysis of the deposited data

How the results depend on the processing

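The calls of *JAK1* in lrNK cells against both CD8α high populations, and of *STAT5B* against blood, kept their direction and their side of the threshold under all 15 alternatives. Log2 fold changes of *JAK1* against blood lay between 1.19 and 1.44, and those of *STAT5B* between -0.73 and -0.61. Of the 60 alternative values of these calls and of the call of *STAT5B* against liver CD8α high NK cells, 51 passed the threshold and 9, all of the latter, did not, and 0 reversed direction. Of the 341 values of results not called, 0 were called. The number of JAK and STAT genes called between lrNK and liver CD8α high NK cells was 1 in place of 2 with library totals, without a filter on low counts, with only the 2 populations compared, at an adjusted p under 0.01, and with each pig left out. It stayed at 2 without the lrNK library of pig 3 alone. With the pig as a replicate block, 2 of the 9 genes were called in each comparison of lrNK cells and 0 between the CD8α high populations, and 2120 of all genes against blood. The block changed no call of the 9 genes, and among the genes named from the pathway lists it ended the call of *PIM1* against blood. It added calls of *IL4R* and *SOCS1*, lower against blood, and of *IL6ST*, higher, and *PIM1* and *ID2*, lower, against liver CD8α high cells.

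Of all genes, 1199 were called at an adjusted p under 0.01 in lrNK cells against blood, and 947 against liver CD8α high NK cells. At 0.05, with each pig, or the lrNK library of pig 3, left out, the number against liver CD8α high cells ranged from 1051 to 1764, the highest without that library alone. Between liver and blood CD8α high NK cells, 18 genes were called without a filter, 22 with DESeq2, 4 with robust dispersion, 16 with only the 2 populations compared and 0 at an adjusted p under 0.01. With each pig, or the lrNK library of pig 3, left out, this number ranged from 0 to 12. The cause of these shifts was not tested. The same settings were applied after the data were seen to the 17 genes named from the pathway lists by their calls, and 11 kept their call throughout.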
